A study of Mus musculus with 6 samples.

Results

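The genes described here belong to the integrated stress response, the programme that the transcription factor ATF4 runs. They are Atf4, Ddit3, Atf3, Atf5, Trib3, Chac1, Asns, Sesn2, Fgf21 and Gdf15, and they were taken by gene symbol from a table of 55401 genes measured in mouse liver. All 10 were found and all 10 were among the 18931 genes that passed the filter on low counts. Ddit3 is listed under 2 identifiers. The second entry (ENSMUSG00000116429) had a deposited count of 1 in every library, so Ddit3 below means ENSMUSG00000025408.

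Liver RNA came from 6 male mice, 3 of genotype Prdx1(lox/lox) and 3 of genotype Prdx1(lox/lox);Alb-cre. The first, called control, carried floxed alleles of Prdx1, the gene of the peroxide-reducing enzyme peroxiredoxin 1, and no Cre. The second, called knockout, carried the same floxed alleles and Cre recombinase under the albumin promoter, which is active in hepatocytes. Which other cells of the liver kept Prdx1 intact was not tested. Both groups were given MCD, an abbreviation that the labels leave unexplained and that usually means a diet lacking methionine and choline, for 5 weeks from the age of 8 weeks. No mouse had Cre without floxed Prdx1 and none was kept off MCD, so Cre and the loss of Prdx1 cannot be told apart, nor can effects that do or do not need the diet. The strain is not given in the sources used here.

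Cells start the integrated stress response when a kinase phosphorylates the translation factor eIF2. The kinases sense amino acid shortage (GCN2), stress of the endoplasmic reticulum (PERK), haem shortage or mitochondrial stress (HRI) and double-stranded RNA (PKR). Most translation then slows while that of Atf4 mRNA rises, so ATF4 protein is set largely at translation and a level of Atf4 mRNA does not report it. ATF4 raises genes of amino acid supply and, when stress lasts, of cell death, and in liver it also raises FGF21 and GDF15, hormones that act on other organs.

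Deposited counts totalled 58790874 to 78291273 per library. Prdx1 in the knockouts was at 14.1% of the control mean, in the direction of the labels. Levels are given as CPM, counts relative to library size on the usual scale, with library sizes multiplied by TMM factors (0.869 to 0.887 in controls, 1.10 to 1.16 in knockouts), which centre the bulk of the genes. Errors of levels are SD with n = 3 mice per group throughout. Fold changes are log2 values of knockout against control with their standard error (SE). A gene counts as changed when the p-value of edgeR's quasi-likelihood test, adjusted by the Benjamini-Hochberg method over all tested genes, is below 0.05. By that rule 18.0% of tested genes were lower and 19.9% higher in the knockouts, 37.9% in all.

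The cell makeup of the RNA differed between the groups. Of 15 hepatocyte markers 12 fell and 0 rose (median log2 fold change -0.80), and their summed level was 124535 to 147688 CPM in the controls and 72461 to 92754 CPM in the knockouts. All 10 ductular markers rose (median 4.10, summed level 88.2 to 99.0 against 1185 to 1375 CPM), as did all 12 macrophage and Kupffer cell markers (median 1.29, 1306 to 1455 against 3017 to 3266 CPM) and 9 of 10 stellate cell and fibroblast markers (median 1.60, 716 to 797 against 2084 to 2440 CPM). Of 8 endothelial markers 3 rose and 1 fell (509 to 524 against 488 to 556 CPM), and of 10 lymphocyte and neutrophil markers 5 rose and 1 fell (19.1 to 22.6 against 41.4 to 47.3 CPM). No marker of these lists was at 0 in a whole group. With library sizes alone 11 hepatocyte markers were lower and 1 higher (median -0.43). All 10 ductular, all 12 macrophage and Kupffer cell and all 10 stellate cell and fibroblast markers were then higher. Of the endothelial markers 4 were then higher and 0 lower, and of the lymphocyte and neutrophil markers 6 and 1. In bulk liver, fewer cells of a type and less RNA per cell cannot be told apart. To show what this shift can do to the values, fold changes of the 10 genes are also given with the libraries levelled on the 15 hepatocyte markers. That scaling was chosen after seeing the data, and it moved the median of all tested genes from 0.05 to 0.84. For the gene lists read below the median is given with it, and for single list genes the value only in part.

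Of the 10 genes, 7 fell in the knockouts and 0 rose, where 18.0% of all tested genes fell. The 4 transcription factors Atf4, Ddit3, Atf3 and Atf5 fell, as did both hormones, Fgf21 and Gdf15, and of the 4 intracellular targets only Chac1. Trib3, Asns and Sesn2 did not pass the threshold. For the 7 genes that fell, every control liver was above every knockout liver, a separation that 24.2% of all tested genes showed in this direction. Of the 7, 5 fell by over 2-fold (Ddit3, Atf3, Chac1, Fgf21 and Gdf15), as did 3.83% of all tested genes. The median log2 fold change of the 10 genes was -1.17, against 0.05 for all tested genes. With library sizes alone the same medians were -0.80 and 0.41, with 6 genes lower and 1 higher where 6.60% and 34.1% of all tested genes were.

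**Figure D1:**
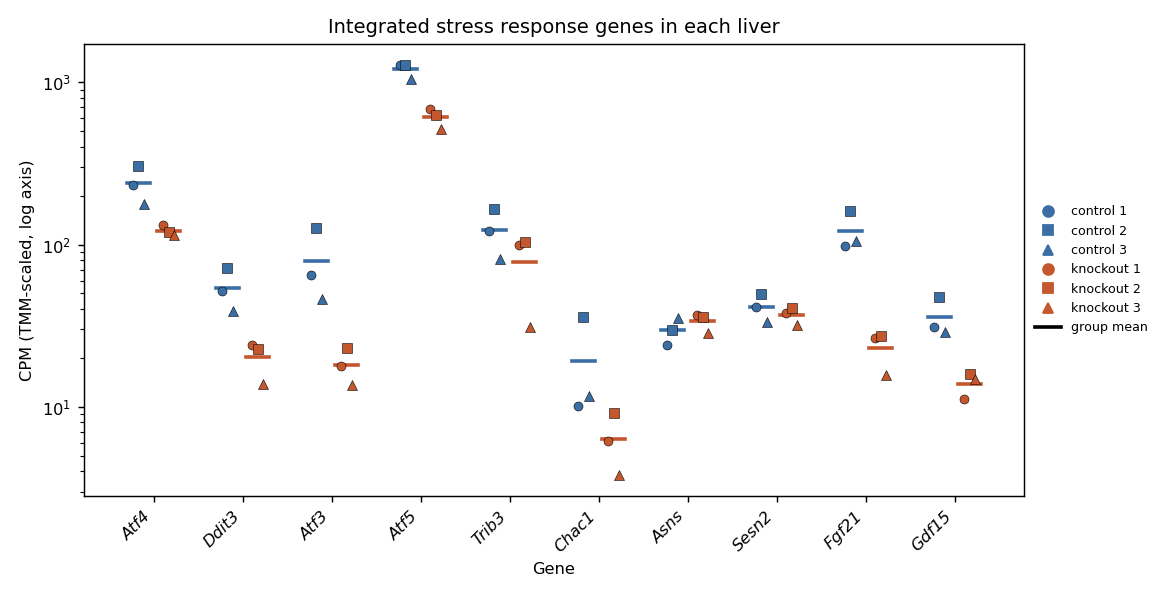
TMM-scaled CPM (log axis) of the 10 genes in each of the 6 livers, with controls in blue, knockouts in orange, symbols for the replicate numbers and bars at the group means. The groups are apart for Atf4, Ddit3, Atf3, Atf5, Chac1, Fgf21 and Gdf15 and overlap for Trib3, Asns and Sesn2, and control 2 is the highest control for 8 of the 10 genes.

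ATF4 and its C/EBP partners bind composite elements whose core reads TGATGNAA, or TTNCATCA on the other strand. Both strands of the RefSeq promoter windows of GRCm38.p6 (250 bases before to 50 after each listed start) were searched for this core. It was present in 3.97% of 32851 promoters and for 4.51% of 27025 genes. All 10 genes had a promoter there, and the core was found for 5 of them. The windows of those 5 are printed because they set 3 genes that fell beside 2 that did not pass the threshold. Each runs from 250 bases before to 30 after the start, 5′ to 3′ on the gene's strand, with the core in capitals.
Fgf21 (chr7:45615461-45615740, minus strand): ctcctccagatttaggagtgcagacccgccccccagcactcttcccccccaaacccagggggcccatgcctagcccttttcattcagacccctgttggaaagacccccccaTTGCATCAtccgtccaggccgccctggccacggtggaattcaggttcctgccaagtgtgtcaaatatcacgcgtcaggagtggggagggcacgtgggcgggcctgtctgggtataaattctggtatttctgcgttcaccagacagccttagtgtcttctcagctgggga
Atf3 (chr1:191183304-191183583, minus strand): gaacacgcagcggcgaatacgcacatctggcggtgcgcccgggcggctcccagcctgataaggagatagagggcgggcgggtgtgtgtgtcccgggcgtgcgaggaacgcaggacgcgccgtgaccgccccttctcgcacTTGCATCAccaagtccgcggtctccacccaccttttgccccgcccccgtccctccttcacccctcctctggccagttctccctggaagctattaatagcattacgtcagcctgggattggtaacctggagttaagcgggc
Chac1 (chr2:119350992-119351271, plus strand): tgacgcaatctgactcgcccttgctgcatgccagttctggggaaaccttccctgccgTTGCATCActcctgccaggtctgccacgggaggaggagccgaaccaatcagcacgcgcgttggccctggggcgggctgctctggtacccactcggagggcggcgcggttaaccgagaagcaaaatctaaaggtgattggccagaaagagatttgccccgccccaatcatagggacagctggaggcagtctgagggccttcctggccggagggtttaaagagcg
Asns (chr6:7693180-7693459, minus strand): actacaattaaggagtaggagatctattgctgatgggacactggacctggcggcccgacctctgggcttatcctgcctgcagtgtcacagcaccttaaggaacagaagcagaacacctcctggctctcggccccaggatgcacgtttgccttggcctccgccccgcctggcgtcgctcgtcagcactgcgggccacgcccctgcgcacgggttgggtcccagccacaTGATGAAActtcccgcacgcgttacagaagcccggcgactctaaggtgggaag
Trib3 (chr2:152344031-152344310, minus strand): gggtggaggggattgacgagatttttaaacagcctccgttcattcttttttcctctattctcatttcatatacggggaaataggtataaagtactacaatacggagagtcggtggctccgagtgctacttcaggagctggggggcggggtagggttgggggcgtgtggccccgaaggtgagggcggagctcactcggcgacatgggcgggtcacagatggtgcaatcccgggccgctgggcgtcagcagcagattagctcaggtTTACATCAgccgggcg
The core begins 139 bases before the start in Fgf21, 110 in Atf3, 193 in Chac1 and 23 in Asns, and at base 15 after it in Trib3. In Fgf21, Atf3 and Chac1 the 8 letters are the same. Of the 5 genes with the core 3 fell and 2 did not pass, and of the 5 without it in this window (Atf4, Ddit3, Atf5, Sesn2 and Gdf15) 4 fell and 1 did not pass. A match is a description of the sequence and does not show that a factor binds there.

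Atf4 (ENSMUSG00000042406, chromosome 15, 80255184 to 80257541, plus strand, GRCm38) encodes the factor at the centre of the response. Its mRNA was at 235, 303 and 177 CPM in controls 1 to 3 and at 132, 120 and 114 CPM in knockouts 1 to 3. The controls were spread more widely than the knockouts, and the lowest control was above the highest knockout. The mean went from 238 ± 63.1 to 122 ± 8.84 CPM, a log2 fold change of -0.96 ± 0.18 with an adjusted p of 0.00485 in edgeR.

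Ddit3 (chromosome 10, 127290774 to 127296288, plus strand) encodes CHOP, the factor tied to cell death when stress lasts. It was at 51.4, 71.7 and 38.7 CPM in the controls and at 24.2, 22.7 and 13.8 CPM in the knockouts. The fall of 1.42 ± 0.28 on the log2 scale had an adjusted p of 0.00551 in edgeR. Ddit3 shares 68 bases with Mars1 on the other strand, a tRNA synthetase gene with a mean deposited count of 4162 against 2367 for Ddit3, and whether counting used strand is not given in the sources used here.

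Atf3 (ENSMUSG00000026628, chromosome 1, 191170296 to 191218039, minus strand) encodes a stress-induced factor that ATF4 raises and that other signals raise as well. It was at 65.0, 127 and 46.0 CPM in the controls and at 17.9, 23.0 and 13.6 CPM in the knockouts. Control 2 stood at 1.96 times the next control, and even the lowest control was 2.00 times the highest knockout. Atf3 had the largest fall of the 4 factors, from 79.5 ± 42.6 to 18.1 ± 4.70 CPM, or -2.13 ± 0.38 on the log2 scale (adjusted p = 0.00361 in edgeR).

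Atf5 (ENSMUSG00000038539, chromosome 7, 44812256 to 44816658, minus strand) encodes a factor related to ATF4 that is abundant in liver and linked to mitochondrial stress. It was at 1288, 1273 and 1047 CPM in the controls and at 690, 632 and 518 CPM in the knockouts. The spread within each group was small beside the gap, and the log2 fold change was -0.97 ± 0.13 (adjusted p = 0.00118 in edgeR). It shares 571 bases with Nup62 on the other strand, a nuclear pore gene whose mean deposited count was 1192 against 59304 for Atf5.

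Both hormones fell. Fgf21 (ENSMUSG00000030827, chromosome 7, 45613886 to 45615490, minus strand) encodes fibroblast growth factor 21, which liver releases in fasting and under nutrient stress. It was at 98.0, 160 and 106 CPM in the controls and at 26.5, 27.1 and 15.8 CPM in the knockouts, so the lowest control was 3.61 times the highest knockout, the widest gap among the 10 genes. The log2 fold change was -2.39 ± 0.27, with a 95% interval of -3.01 to -1.78 and an adjusted p of 0.000491 in edgeR.

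Gdf15 (ENSMUSG00000038508, chromosome 8, 70629393 to 70632456, minus strand) encodes growth differentiation factor 15, a hormone of stressed tissue that acts on the brainstem to lower food intake. It was at 30.8, 47.8 and 28.9 CPM in the controls and at 11.1, 15.9 and 14.7 CPM in the knockouts. The groups were apart, and the log2 fold change was -1.37 ± 0.22 (adjusted p = 0.00259 in edgeR).

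The intracellular targets did not move as one. Chac1 (ENSMUSG00000027313, chromosome 2, 119351229 to 119354381, plus strand) encodes an enzyme that breaks down glutathione. It was at 10.2, 35.6 and 11.7 CPM in the controls and at 6.13, 9.18 and 3.78 CPM in the knockouts. Control 2 was 3.04 times the next control, and the lowest control was 1.11 times the highest knockout. The log2 fold change was -1.59 ± 0.53, with an adjusted p of 0.0475 in edgeR. Without control 2 it was -0.78 and the call was lost (adjusted p = 0.138), and the call was also lost without knockout 1 (0.131), knockout 2 (0.0546) or knockout 3 (0.134).

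Trib3 (ENSMUSG00000032715, chromosome 2, 152337422 to 152344032, minus strand) encodes a pseudokinase that binds ATF4 and CHOP and restrains them. It was at 121, 166 and 81.1 CPM in the controls and at 98.9, 104 and 30.8 CPM in the knockouts. Knockouts 1 and 2 lay within the control range and knockout 3 lay below it. The log2 fold change of -0.66 had a 95% interval of -1.69 to 0.37 (adjusted p = 0.289 in edgeR), which covers a fall as large as that of Atf4 as well as a rise.

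Asns (ENSMUSG00000029752, chromosome 6, 7675169 to 7693254, minus strand) encodes asparagine synthetase, a textbook target of ATF4 under amino acid shortage. It was at 23.9, 29.9 and 35.3 CPM in the controls and at 36.7, 35.5 and 28.4 CPM in the knockouts, and the groups overlapped. The log2 fold change was 0.18 ± 0.17 with a 95% interval of -0.21 to 0.56 (adjusted p = 0.448 in edgeR), so a fall of the size seen for Atf4 lies outside the interval. With library sizes alone the value was 0.55 and passed the threshold as higher (adjusted p = 0.0376).

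Sesn2 (ENSMUSG00000028893, chromosome 4, 132492032 to 132510501, minus strand) encodes sestrin 2, which senses leucine and restrains mTORC1. It was at 41.5, 49.8 and 33.2 CPM in the controls and at 37.7, 40.7 and 31.8 CPM in the knockouts. The groups overlapped, and the log2 fold change of -0.18 had a 95% interval of -0.56 to 0.20 (adjusted p = 0.444 in edgeR). Its sign turned to 0.20 with library sizes alone. It shares 6089 bases with Gm12981 on the same strand, and the mean deposited count was 16.2 for Gm12981 and 2685 for Sesn2.

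One library in each group was often at the extreme. Control 2 was the highest control for 8 of the 10 genes, all but Atf5 and Asns, and knockout 3 was the lowest knockout for 9 of 10, all but Gdf15. The coefficient of variation in the controls ran from 11.2% for Atf5 to 74.4% for Chac1, and in the knockouts from 7.24% for Atf4 to 52.4% for Trib3.

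Levels can be compared between genes only per length, for which the deposited FPKM were used. In the controls Atf5 was highest at 485 ± 54.0 FPKM, before Fgf21 at 102 ± 27.3, Atf4 at 81.1 ± 20.7 and Trib3 at 46.4 ± 15.6. Atf3 at 29.6 ± 15.5, Ddit3 at 25.3 ± 7.52 and Gdf15 at 15.5 ± 4.30 FPKM came next, and Sesn2 at 9.59 ± 1.83, Chac1 at 9.34 ± 6.84 and Asns at 8.71 ± 1.66 FPKM were lowest. From Fgf21 down, each neighbour in this order lay within the summed SDs of the pair, so only the place of Atf5 stands clear of the spread. In the knockouts Atf5 was again highest at 316 ± 53.2 FPKM. Fgf21 was now at 25 ± 7.49 FPKM, below Atf4 at 53.1 ± 5.09 and, within the summed SDs of the pair, Trib3 at 37.9 ± 20.4. Asns had moved from last place to the rank after Fgf21, at 12.6 ± 2.03 FPKM, though outside the summed SDs of that pair. It lay within the summed SDs of Ddit3 at 12.2 ± 3.67 and of Sesn2 at 10.8 ± 1.62 FPKM. With TMM factors the log2 fold change of Asns, 0.18, did not pass the threshold.

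**Figure D2:**
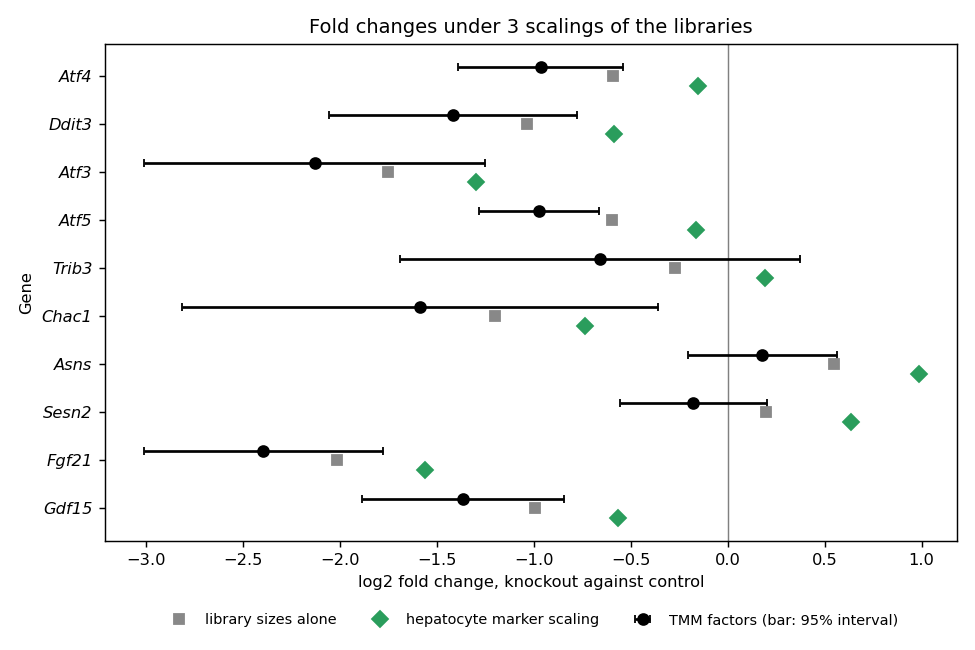
The log2 fold change of each of the 10 genes, knockout against control, with TMM factors (black, bar the 95% interval), with library sizes alone (grey) and with libraries levelled on 15 hepatocyte markers (green). Every gene moves up in this order of scalings, and Atf3, Fgf21 and Gdf15 stay below 0 and past the threshold in all 3.

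The 3 scalings differ in how much of the fall they leave. With hepatocyte marker scaling the median of all tested genes was 0.84 and that of the 10 genes -0.36. Of the 10 genes 3 were lower and 2 higher, where 353 of all 18931 tested genes were lower and 11003 higher. Fgf21 at -1.56 (adjusted p = 0.000996), Atf3 at -1.30 (0.00932) and Gdf15 at -0.57 (0.0347) remained past edgeR's threshold. Atf4 at -0.15, Atf5 at -0.16, Ddit3 at -0.58 and Chac1 at -0.73 did not (adjusted p = 0.487, 0.432, 0.10 and 0.211), while Asns at 0.98 (adjusted p = 0.00273) and Sesn2 at 0.63 (0.0153) passed as higher. The part that fewer hepatocytes, or less of their RNA, had in these values was not tested beyond this scaling.

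The direction of the genes upstream of ATF4 depended on the scaling. Of 17 genes of eIF2 kinases, phosphatases and the exchange factor eIF2B, 11 fell and 2 rose, with a median of -0.46, but with library sizes alone 3 fell and 4 rose and the median was -0.09. Of all tested genes 6.60% were lower and 34.1% higher with library sizes alone. With hepatocyte marker scaling the list median turned to 0.33, and it was below that of all tested genes under each scaling. Dnajc3, an inhibitor of PERK and PKR, fell by 0.79, Eif2b4 and Eif2b5, subunits of eIF2B, by 0.72 and 0.47, and Ppp1r15b, which directs dephosphorylation of eIF2, by 0.63. The Eif2b5 call was lost with library sizes alone (-0.11, adjusted p = 0.430 in edgeR).

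The 4 kinases, chosen after their values were seen and including both genes of the list that rose, differed in direction. Eif2ak3 (PERK) was at -0.55 and Eif2ak1 (HRI) at -0.26, while Eif2ak2 (PKR) was at 0.38 and Eif2ak4 (GCN2) at 0.47 (adjusted p = 0.0217, 0.0377, 0.0173 and 0.0183 in edgeR). With library sizes alone Eif2ak1 turned to 0.11 and Eif2ak3 was at -0.18 and not called. The Eif2ak1 call was also lost without a count filter (adjusted p = 0.0800 in edgeR) and with a replicate block (0.0677). Each of these 4 calls was lost when some single library was left out: that of Eif2ak3 without knockout 2 or 3, and that of Eif2ak1 without any library but control 3. The call of Eif2ak2 was lost without control 1, knockout 1 or knockout 2, and that of Eif2ak4 without control 2, knockout 1 or knockout 2 (adjusted p = 0.0521 to 0.104 over these fits).

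Other targets of ATF4 and CHOP were mixed. Of 34 tested, 15 fell, 3 rose and 16 missed the threshold (median -0.51). With library sizes alone 9 were lower and 7 higher, at a median of -0.14, and with hepatocyte marker scaling the median turned to 0.28. The medians of all tested genes with those scalings were 0.41 and 0.84. Inhbe, which encodes the activin E subunit, went from 134, 174 and 131 CPM in the controls to 29.4, 28.9 and 28.1 CPM in the knockouts, or -2.35 ± 0.13 (adjusted p = 3.7e-05 in edgeR). Its fall was close in size to that of Fgf21. Herpud1, a factor of protein degradation at the endoplasmic reticulum, fell by 1.14, the serine-to-glycine enzyme Shmt2 by 0.89 and the autophagy receptor Sqstm1 by 0.84.

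The 3 genes with a rise, picked once their values were known, were Stc2, a secreted glycoprotein, at 0.00, 0.342 and 0.753 CPM in the controls and 7.16 to 8.28 CPM in the knockouts, Phgdh, the first enzyme of serine synthesis, from 0.678 ± 0.166 to 2.18 ± 0.721 CPM, and Jdp2, an AP-1 repressor, at 0.70. The fold of Stc2 depended on its low controls, with a log2 value of 4.39 in the main fit, 5.46 without control 3 and 3.81 without control 1. The call of Phgdh was lost without knockout 3 (adjusted p = 0.0557 in edgeR). Nupr1, a stress factor also chosen after its values were seen, shared the high control 2 of Chac1, with 12.6, 70.4 and 31.2 CPM in the controls and 15.7, 14.1 and 10.2 CPM in the knockouts (adjusted p = 0.0590 in edgeR, 0.197 without control 2 and 0.00855 without control 1).

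Cytosolic tRNA synthetases, a set that ATF4 raises for protein synthesis, were lower with TMM factors. Of 12 tested 11 fell, with a median of -0.62, though with library sizes alone 2 fell and the median was -0.25. With hepatocyte marker scaling the median turned to 0.18, where that of all tested genes was 0.84. Yars fell by 0.96, Aars by 0.90, Eprs by 0.70 and Cars by 0.67, and the calls of Eprs and Cars were lost with library sizes alone (adjusted p = 0.0652 and 0.0767 in edgeR). RefSeq promoters were at hand for 8 of them, and 5 of those held the TGATGNAA core, against 7 of 29 genes of the list of other ATF4 and CHOP targets.

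The other arms of the unfolded protein response were lower with TMM factors and with library sizes alone. Of 16 chaperone, ATF6 and XBP1 genes 14 fell and 0 rose, with a median of -0.80, and 10 fell with library sizes alone. With hepatocyte marker scaling the list median was 0.00015, against 0.84 for all tested genes. Creld2 fell by 1.58, the chaperones Hyou1 and Dnajb9 by 1.55 and 1.42, and the sensor gene Atf6 by 0.98. With hepatocyte marker scaling Creld2 at -0.78, Hyou1 at -0.74 and Dnajb9 at -0.61 were still past edgeR's threshold (adjusted p = 0.0100, 0.00721 and 0.0180), and Atf6 at -0.17 was not (0.384). None of the 13 genes of this list found in the promoter table held the core.

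**Figure D3:**
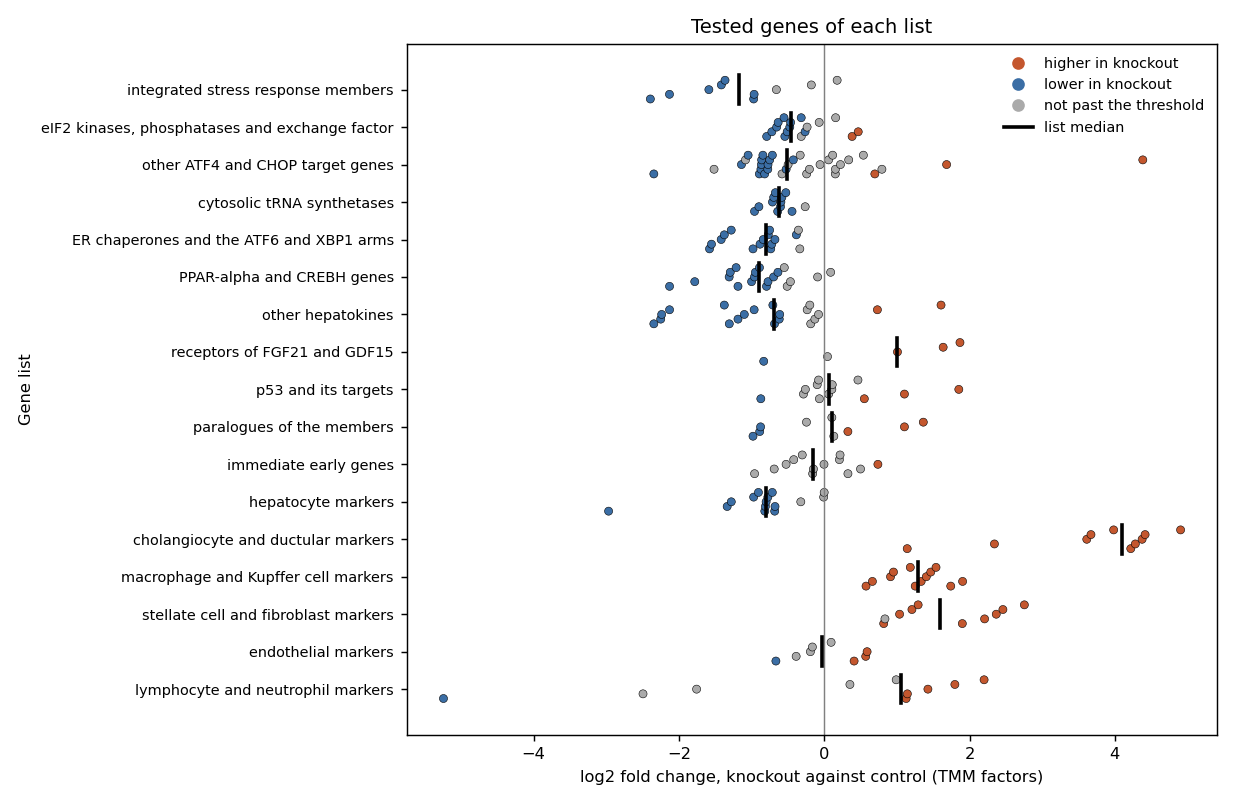
Each point is a tested gene at its log2 fold change, knockout against control with TMM factors, coloured by its call at an adjusted p of 0.05, in one row per list with a black bar at the list median. The 10 integrated stress response genes (top row, median -1.17) lie to the left of 0 except Asns, and the ductular markers (median 4.10) lie farthest to the right.

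Fgf21 is also a target of PPAR-alpha and CREBH, factors of fasting metabolism. Of 19 genes of that list 14 fell and 0 rose, with a median of -0.89 (10 fell and -0.53 with library sizes alone). Fabp1, a fatty acid carrier, fell by 2.13, the vascular non-inflammatory molecule Vnn1 by 1.78 and the oxidation enzyme Hadha by 0.89. With hepatocyte marker scaling the median of this list was -0.10, against 0.84 for all tested genes. Fabp1 at -1.35 and Vnn1 at -0.99 then still passed edgeR's threshold (adjusted p = 9.01e-05 and 0.00266), and Hadha at -0.10 did not (0.550).

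Other liver hormones were also lower with TMM factors. Of 20 other hepatokines 13 fell, 2 rose and 5 missed the threshold at a median of -0.70 (11 lower, 2 higher and -0.33 with library sizes alone). The median turned to 0.09 with hepatocyte marker scaling, where that of all tested genes was 0.84. Besides Inhbe, Tsku, which encodes tsukushi, went from 403 ± 28.6 to 85.5 ± 24.5 CPM and Angptl6 from 14.4 ± 1.63 to 3.30 ± 1.02 CPM. The 2 with a rise, picked once their values were known, were Lcn2, lipocalin 2, at 0.73 and Fst, which encodes the activin-binding follistatin, at 1.61. The call of Lcn2 was lost without control 1 or control 3 (adjusted p = 0.0790 and 0.0665 in edgeR).

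On the side of the receptors, Klb fell and FGF receptor genes rose. Over the 5 receptor genes tested the median was 1.01, and it was 1.78 with hepatocyte marker scaling. Klb encodes beta-klotho, the co-receptor that FGF21 needs, and was at 42.3, 39.6 and 44.4 CPM in the controls and at 22.6, 19.1 and 29.2 CPM in the knockouts (-0.83 ± 0.16, adjusted p = 0.00488 in edgeR). Its value was -0.057 with hepatocyte marker scaling, and the call was lost (adjusted p = 0.763 in edgeR). Fgfr1, which pairs with beta-klotho for FGF21, rose from 15.6 ± 0.910 to 48.4 ± 3.54 CPM, Fgfr3 from 30.9 ± 5.19 to 113 ± 9.38 CPM and Fgfr2 from 49.6 ± 5.59 to 99.8 ± 20.2 CPM. Fgfr4, the main FGF receptor of hepatocytes, was at 0.05 ± 0.11 and did not pass (0.41 with library sizes alone, where it was called higher at an adjusted p of 0.0166). Gfral, the GDF15 receptor of the brainstem, had a count of 0 in all 6 libraries, and its partner Ret had 0 in the controls and failed the filter.

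**Figure D4:**
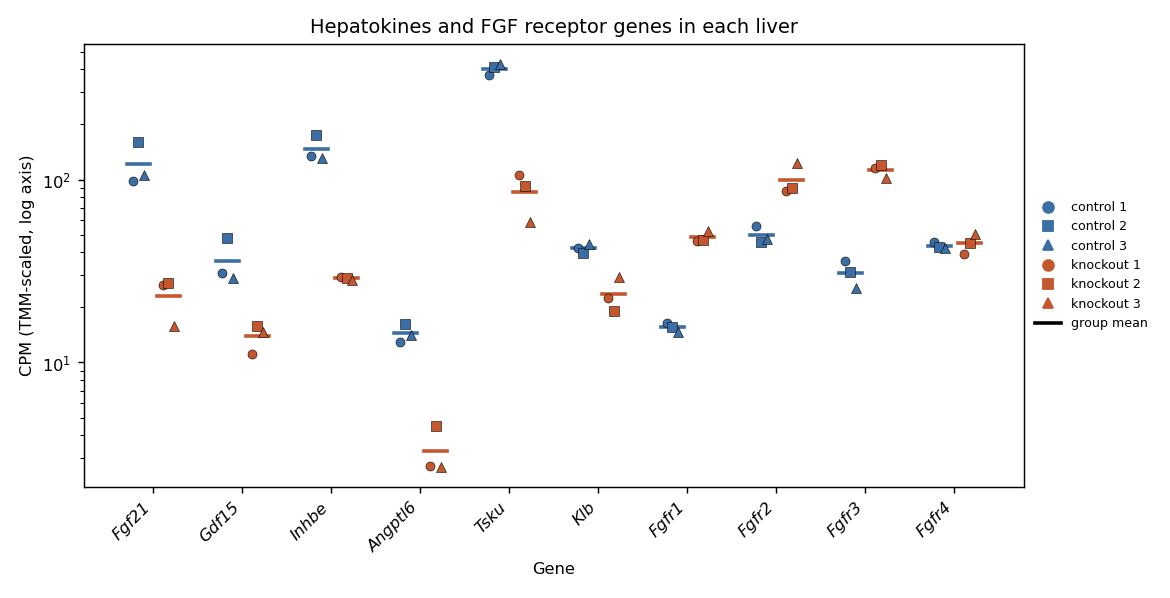
TMM-scaled CPM (log axis) of Fgf21, Gdf15, 3 other hepatokine genes, Klb and 4 FGF receptor genes in each liver, with controls in blue, knockouts in orange and bars at the group means. The hepatokine genes and Klb are lower in all 3 knockouts, Fgfr1, Fgfr2 and Fgfr3 are higher in all 3, and Fgfr4 overlaps.

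Genes that share a family name with the 10 genes, called paralogues here, did not follow them as a group. Of 9, 3 fell, 3 rose and 3 did not pass. Their median was 0.10, and it was 0.89 with hepatocyte marker scaling, where that of all tested genes was 0.84. Trib1 and Chac2 fell by 0.88 and 0.89, as did Atf6, named above, while Trib2 rose by 1.36, Sesn1 by 1.10 and Atf7 by 0.33. Sesn3 at 0.10, Atf1 at -0.24 and Atf2 at 0.13 did not pass, and Atf1 turned to 0.13 and Sesn3 was called higher (0.47) with library sizes alone. The call of Atf7 was lost without control 1, control 3 or knockout 2 (adjusted p = 0.0561 to 0.0859 in edgeR).

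Atf3, Sesn2 and Gdf15 also answer to other signals, for which lists were read that, like the others, were chosen with earlier results of these data known. Of 13 genes of p53 and its targets 3 rose, 1 fell and 9 missed the threshold at a median of 0.06 (5 higher, 0 lower and 0.43 with library sizes alone). Of all tested genes 19.9% rose and 18.0% fell at a median of 0.05 (34.1%, 6.60% and 0.41 with library sizes alone). The median of the p53 list was thus near that of all tested genes. Phlda3, Sesn1 and Zmat3 rose by 1.85, 1.10 and 0.55 and Trp53inp1 fell by 0.87, a call lost with library sizes alone (adjusted p = 0.0733 in edgeR). Of 13 immediate early genes, which rise within minutes of stress or of handling tissue, Junb rose by 0.74 and 12 missed the threshold at a median of -0.15 (4 higher and 0.22 with library sizes alone). Zfp36 at -0.69, Jund at -0.42 and Klf6 at 0.33 came nearest of those (adjusted p = 0.0576, 0.0782 and 0.0838 in edgeR). Zfp36 passed as lower without knockout 3 (0.00453) and Jund without control 3 (0.0344), and Klf6 passed as higher with library sizes alone (0.69). Hepatocyte marker scaling gave list medians of 0.86 for p53 and its targets and 0.67 for the immediate early genes, against 0.84 for all tested genes.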

How the data were processed

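Poly(A) RNA was made into strand-marked libraries with unique molecular identifiers and sequenced as read pairs, per the labels' protocols. The deposited table gives an estimated count and an FPKM per gene and library, both made by the authors, and FPKM is 0.0001 where the count is 0. The submitters' processing notes name, without roles, StringTie 1.3.4d, HISAT2 2.0.4, edgeR, DESeq2, cutadapt 1.9 and UMI-tools, and the build mm9. Positions in the table match GRCm38 instead (94.2% of 55141 identifiers had the position of GENCODE M21, all 10 members included). Deposited counts are whole but pile up at multiples of 4 (854 genes at 4 in control 1, against 280 at 3). The cause was not tested, and no counting intervals are given. Columns named wt were taken as the control, the only genotype without Cre.

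Counts were analysed with edgeR 4.0.16 in R 4.3.3 (filterByExpr with a minimum count of 10 and total of 15, TMM factors, genotype as the only term, two-sided quasi-likelihood test). SEs come from the F statistic. Alternatives used DESeq2 1.42.0 and limma 3.58.1, the latter on log2(FPKM + 0.5), and scripts were tested on simulated data. Replicates are separate mice per the series' design text. Beyond the 10 members, up to 4 genes with the smallest p are named per pathway list, receptors and paralogues whatever their p, and any further gene is said to be picked with its values known. A few genes that this rule names are not reported here. Members and lists were chosen with earlier results of these data known. Promoter sequences are RefSeq's (GRCm38.p6).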

Additional observations from a re-analysis of the deposited data

How the results depend on the processing

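Under 17 alternatives Fgf21, Atf3 and Gdf15 kept their direction and their call, with log2 fold changes of -2.53 to -1.56, -2.41 to -1.30 and -1.50 to -0.57. Library scaling mattered most. Over all genes 3415 were lower and 3767 higher, against 1249 and 6459 with library sizes alone and 353 and 11003 with hepatocyte marker scaling, which was added after seeing the data. Limma on FPKM gave 1364 and 6671 with a pseudocount of 0.5, 1364 and 6650 with 1, and 1362 and 6667 with 0.1, and a test against a fold change of 1.5 gave 780 and 1917. Of the 10 members, 3 were lower and 2 higher with hepatocyte marker scaling, and 1 (Asns) was higher with library sizes and with limma on FPKM at each pseudocount. Leaving out 1 library gave 6 to 7 lower and 0 higher members, and 2641 to 3104 lower and 2892 to 3645 higher genes. Signs turned for Sesn2 (0.20 with library sizes, 0.17, 0.17 and 0.18 with limma on FPKM at 0.5, 1 and 0.1, 0.63 with hepatocyte marker scaling) and Trib3 (0.19 with the last). For genes outside the 10 members, signs were not counted under hepatocyte marker scaling, which moved several list medians above 0. Under the other alternatives signs also turned for Eif2ak1 (0.11 with library sizes, 0.082, 0.078 and 0.086 with limma at 0.5, 1 and 0.1) and for Atf1 (0.13, then 0.10, 0.10 and 0.11). They turned as well for Fgfr4 without knockout 3 (range -0.036 to 0.14 over the libraries left out) and for Atf2 without knockout 2 (range -0.012 to 0.30). The causes were not tested. The call of Chac1 held in 6 of the 17. Besides fits that left out a library, it was lost with library sizes alone (adjusted p = 0.101 in edgeR), without a count filter (0.0620), with limma on FPKM (0.140 to 0.151), against a fold change of 1.5 (0.152) and with hepatocyte marker scaling (0.211). That of Atf4 was lost against a fold change of 1.5 (0.0668) and with hepatocyte marker scaling (0.487), and those of Ddit3 and Atf5 with the latter (0.10 and 0.432).

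Replicate numbers are shared by the groups, but the labels name no batch, so the numbers were not taken as pairs. Deviations from the group means correlated at 0.0130, 0.0746 and 0.0502 for the same numbers 1 to 3. These low values do not decide whether the numbers mark pairs. With a replicate block 8 members were lower and 0 higher, Trib3 among them (-0.79, adjusted p = 0.0396 in edgeR), and 3207 genes were lower and 3269 higher. Every library except knockout 1 correlated best with its own number.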
